A study of Mus musculus with 8 samples.

Results

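GR peaks at H3K4me3 are places where the glucocorticoid receptor (GR) was found on chromatin that carries the histone mark of gene promoters. They were chosen as the GR peaks on chromosomes 1 to 19 and X that share at least 1 base with an H3K4me3 peak, which gave 12338 of 23187 GR peaks (53.2%, exact 95% interval 52.6 to 53.9%). Below they are called the marked GR peaks, and the 10849 remaining ones the other GR peaks. The marked peaks overlapped 10120 of 19790 H3K4me3 peaks. The members were chosen by the measured positions of GR and H3K4me3 peaks, so GR width and H3K4me3 fold and width are given as description only.

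The nuclei came from skeletal muscle of wild-type mice, strain C57/Bl6J, at 10 to 12 weeks of age, with no treatment stated, and their chromatin was immunoprecipitated and sequenced. There was 1 library for each of GR, H3K4me3, H3K27ac, H3K4me1, RNA polymerase II (Pol2) and CTCF, and there were 2 inputs, 1 for H3K4me3 and CTCF and 1 for the remaining antibodies. With 1 library per antibody no value below measures variation between animals, and the sources used here do not say how many animals gave the nuclei. Each interval reflects only the number of peaks or genes counted, as if they were independent, and can be too narrow because peaks cluster. Read depths are not given in the sources used for this work. In bulk nuclei, a mark in few cells and a weak mark in all cells cannot be told apart. The tissue label was checked against start sites: 9 of 10 muscle fibre markers had H3K4me3 and all 10 had Pol2. Of other markers, 5 of 5 endothelial ones had H3K4me3 and 1 had Pol2, 1 of 5 immune ones had H3K4me3 and 1 had Pol2, 1 of 4 neuronal ones had H3K4me3 and none had Pol2, and none of 4 liver ones had either.

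GR is a hormone-activated transcription factor. In DNA it recognises the glucocorticoid response element (GRE), a pair of hexamers that face each other across a spacer, and it can also be held at chromatin through other proteins. H3K4me3 lies on the nucleosomes that flank active start sites, H3K27ac marks active promoters and enhancers, and H3K4me1 marks enhancers and the outskirts of promoters. In muscle, GR is known for inducing genes of protein breakdown and for restraining glucose use.

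Stretches of marked GR peaks are shown to compare the letters found at promoters. The set below holds 4 of the 5 fixed genes with an exact GRE in their widest marked GR peak, and the capitals mark the GRE. The fifth, Txnip, is not shown because its GRE lies in an annotated exon of an antisense gene. All sequences are RefSeq GRCm38.p6 (mm10), read 5′ to 3′ on the strand of the gene, inside the GR peak and clear of annotated exons. The Fkbp5 stretch is chr17:28518135-28518237 on the minus strand, the Trim63 stretch chr4:134314867-134314969 on the plus strand, the Glul stretch chr1:153901581-153901683 on the plus strand and the Mt1 stretch chr8:94178950-94179052 on the plus strand.
Fkbp5: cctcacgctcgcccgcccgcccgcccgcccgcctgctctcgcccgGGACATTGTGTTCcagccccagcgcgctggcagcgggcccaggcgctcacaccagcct
Trim63: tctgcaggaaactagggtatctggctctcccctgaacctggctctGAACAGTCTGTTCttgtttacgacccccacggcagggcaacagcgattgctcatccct
Glul: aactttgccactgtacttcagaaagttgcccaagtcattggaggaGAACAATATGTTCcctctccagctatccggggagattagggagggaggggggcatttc
Mt1: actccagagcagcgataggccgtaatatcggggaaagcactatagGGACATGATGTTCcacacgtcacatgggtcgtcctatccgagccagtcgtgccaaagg

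The next set shows 1 example each of the motifs found most often in marked GR peaks, with the motif in capitals. Per1 has a GC box (Sp1 family), Klf9 an NF-Y site, Per2 a myogenic-type E-box and Foxo3 an NRF1 site. The Per1 stretch is chr11:69098826-69098921 on the plus strand, the Klf9 stretch chr19:23140718-23140804 on the plus strand, the Per2 stretch chr1:91459066-91459126 on the minus strand and the Foxo3 stretch chr10:42276806-42276905 on the minus strand.
Per1: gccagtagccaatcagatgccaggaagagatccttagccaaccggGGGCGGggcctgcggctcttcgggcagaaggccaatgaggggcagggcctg
Klf9: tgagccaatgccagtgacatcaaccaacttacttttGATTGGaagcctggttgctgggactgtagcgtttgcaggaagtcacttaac
Per2: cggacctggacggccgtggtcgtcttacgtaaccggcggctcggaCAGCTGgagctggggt
Foxo3: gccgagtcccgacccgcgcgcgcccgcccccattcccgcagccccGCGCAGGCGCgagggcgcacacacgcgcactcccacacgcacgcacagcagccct

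Marked GR peaks sat on start sites. The midpoint lay within 1 kb of a protein-coding start site in 10375 of them (84.1%, 83.4 to 84.7%) and in 478 other GR peaks (4.41%, 4.03 to 4.81%), where 46.8% of all GR peaks did. The difference was 79.7 percentage points (Newcombe 95% interval 78.9 to 80.4). Within 100 bases the shares were 53.6% of marked and 1.12% of other GR peaks. Among the 10375 near a start site, the median midpoint was 17 bases upstream (-17, quartiles -80 and 38), 59.8% of midpoints were upstream, and 71.3% of the peaks contained the start site itself.

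**Figure D1:**
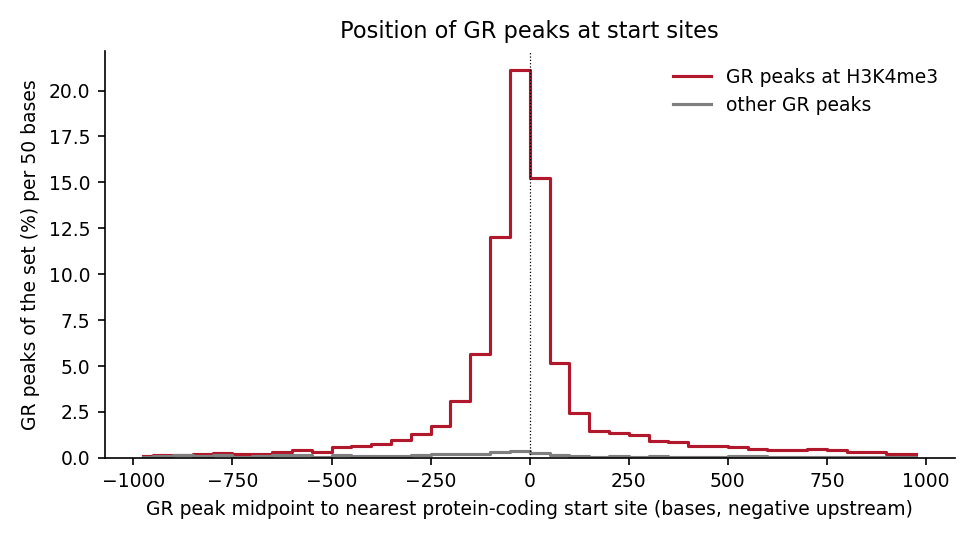
Share of GR peaks per 50 bases (vertical axis) by distance of the midpoint from the nearest protein-coding start site in bases (horizontal axis, negative upstream), for GR peaks at H3K4me3 (red) and other GR peaks (grey). The red line peaks beside the start site, where the median of the peaks within 1 kb is -17 bases, and the grey line stays near 0.

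GR lay upstream of the centre of the H3K4me3 peak. The H3K4me3 summit was a median of 199 bases downstream of the GR midpoint and lay downstream in 77.6% of the 10375 peaks near a start site. It was inside the GR peak in 16.2%. The GR midpoint stood at a median of 35.2% of the H3K4me3 length, counted from the upstream end. H3K27ac had a dip at the same place: its peaks covered 54.0% of positions 50 bases upstream of the GR midpoint, against 71.8% at 250 bases upstream and 90.7% at 250 bases downstream. Pol2 coverage was highest 50 bases downstream, at 73.6%, and H3K4me1 coverage highest 1100 bases downstream, at 67.7%.

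**Figure D2:**
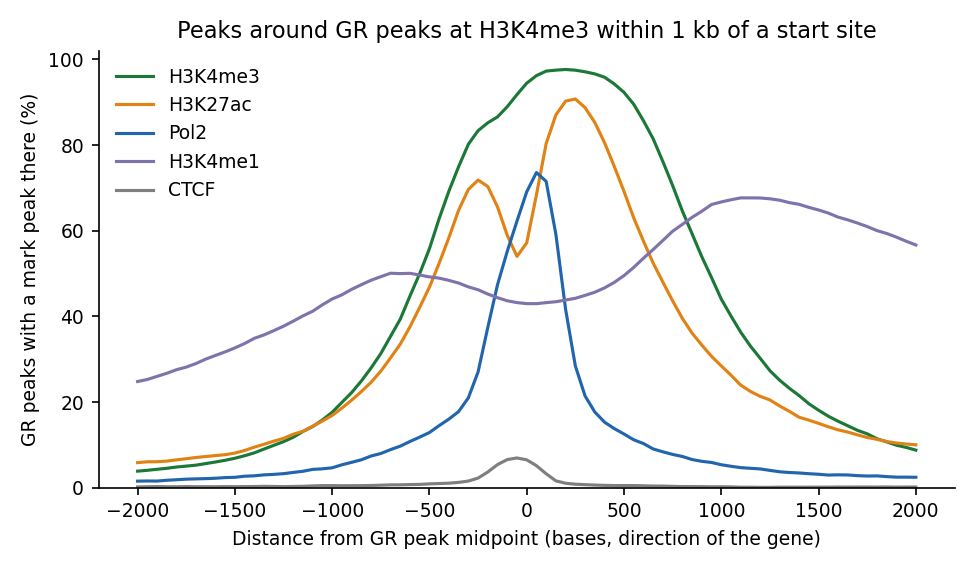
Share of the 10375 GR peaks at H3K4me3 within 1 kb of a start site that have a peak of each mark (vertical axis) at each distance from the GR midpoint, in bases along the gene (horizontal axis). H3K4me3 (97.6%) and H3K27ac (90.7%) are highest downstream of the midpoint, and Pol2 is highest beside it. H3K4me1 is lower at the midpoint (43.0%) than farther downstream (67.7% at 1100 bases). On the upstream side it reaches 50.1% at -700 bases and falls to 24.8% at -2000 bases.

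The marked GR peaks carried the active marks. Pol2 overlapped 84.1% of marked and 14.1% of other GR peaks (difference 69.98 points, 69.0 to 70.9), against 51.3% of all GR peaks. This Pol2 count is also 10375, by coincidence, since 9062 marked peaks had both Pol2 and a start site within 1 kb. H3K27ac overlapped 92.5% of marked and 42.9% of other GR peaks (difference 49.6 points, 48.6 to 50.7), against 69.3% of all GR peaks. H3K4me1 went the other way, at 49.6% of marked and 83.8% of other GR peaks (difference -34.2 points, -35.3 to -33.0), against 65.6% of all GR peaks. CTCF overlapped 8.95% of marked and 4.97% of other GR peaks (difference 3.98 points, 3.33 to 4.63), against 7.09% of all GR peaks.

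Combinations of marks showed 2 large groups. Pol2 with H3K27ac and without H3K4me1 was found at 5494 marked GR peaks (44.5%), and all 3 marks together at 4527 (36.7%). None of the 3 was found at 128 (1.04%). Missing H3K4me1 in the peak did not mean missing it nearby: of the 10375 marked peaks near a start site, 45.9% had H3K4me1 inside, a further 46.6% had it within 1000 bases on 1 or both sides but not inside, and 7.50% had it in neither place. Marked GR peaks with Pol2 had a median width of 265 bases and those without Pol2 170 bases. A wider peak has more room to overlap another list. In the widest 50% of GR peaks, marked minus other GR peaks was 69.6 points for Pol2, against 69.98 in all. There it was 36.0 for H3K27ac, against 49.6, and -42.65 for H3K4me1, against -34.2. The part of width in the overlaps was not tested further.

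H3K4me3 peaks with GR were also set against H3K4me3 peaks without GR. Pol2, H3K27ac and CTCF were again at a higher share, and H3K4me1, lower in marked than in other GR peaks, was here at a higher share too. Pol2 overlapped 89.1% of those with GR and 22.5% of those without (difference 66.6 points, 65.6 to 67.6), against 56.6% of all H3K4me3 peaks. H3K27ac was at 96.2% of those with GR and 46.6% of those without (difference 49.7 points, 48.6 to 50.7), against 72.0% overall. H3K4me1 was at 87.6% of those with GR and 77.0% of those without (difference 10.6 points, 9.58 to 11.7), against 82.4% overall. CTCF was at 11.9% of those with GR and 9.77% of those without (difference 2.11 points, 1.25 to 2.98), against 10.9% overall.

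These H3K4me3 peaks also differed in size, which the rule used. Those with GR had a median deposited fold of 34.8 and a width of 1335 bases, while those without GR had a fold of 8.04 and a width of 496 bases. The share with GR climbed with fold, from decile 1 at 10.5% to decile 10 at 92.5%. Within deciles of fold, the Mantel-Haenszel odds ratio for Pol2, with GR over without, was 10.3 (9.38 to 11.2), against 28.2 without deciles. For H3K27ac it was 9.63 (8.57 to 10.8), against 29.4, and for H3K4me1 1.78 (1.61 to 1.95), against 2.12. For CTCF it was 1.05 (0.945 to 1.18), an interval that includes 1, while within deciles of width it was 2.13 (1.89 to 2.39). Grouped by width in place of fold, the peaks gave 12.6 (11.5 to 13.8) for Pol2 and 10.9 (9.71 to 12.3) for H3K27ac. For H3K4me1 this grouping gave 1.21 (1.10 to 1.33), below the 1.78 found by fold. Among H3K4me3 peaks within 1 kb of a protein-coding start site, the CTCF difference was 6.92 points (6.07 to 7.75).

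**Figure D3:**
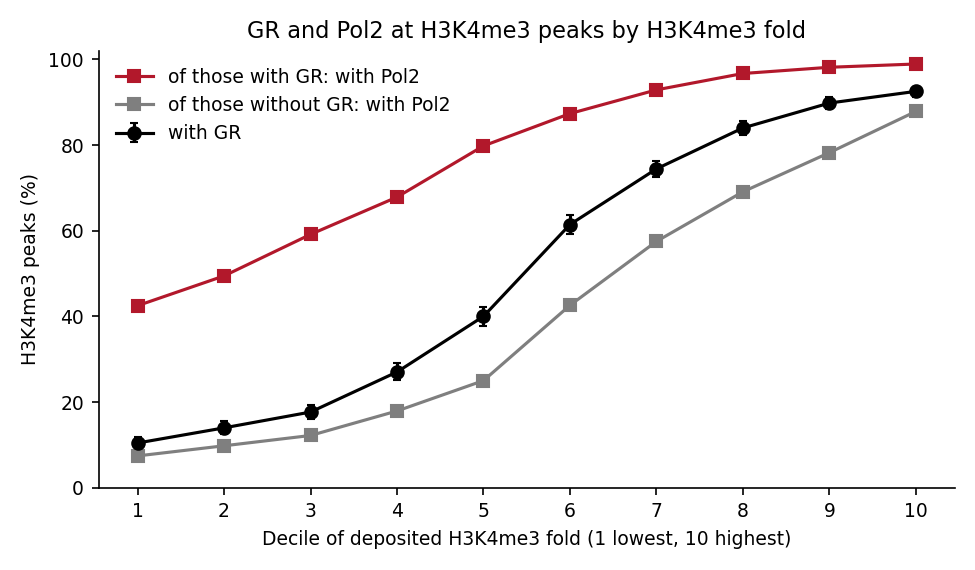
Share of H3K4me3 peaks (vertical axis) by decile of their deposited fold (horizontal axis): with GR (black, exact 95% intervals), and with Pol2 among those with GR (red) and without GR (grey). In decile 1 Pol2 was at 42.5% of peaks with GR and 7.45% of those without, and in decile 10 at 98.9% of peaks with GR and 87.8% of those without.

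GR was found at 81.5% of H3K4me3 peaks that had both Pol2 and H3K27ac. It was at 33.6% of those with Pol2 alone, at 24.3% of those with H3K27ac alone and at 5.74% of those with neither. Most H3K4me3 peaks with GR held a single GR peak (8076 of 10120), 2044 held 2 or more and 89 held 4 or more. The H3K4me3 peaks with the most were at Txnip, a brake on glucose uptake, with 11 GR peaks over 6679 bases, at Tnrc18 and Ubtf with 8 each, at the non-coding gene Neat1 with 8 and at Arid2 with 7. Neighbouring peaks need not be separate binding sites.

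The GR peaks beyond 1 kb of a protein-coding start site numbered 1963. Pol2 overlapped 66.9% of them and 87.3% of the near ones. H3K27ac was at 86.9% of the far and 93.6% of the near ones. H3K4me1 was at 69.0% of the far and 45.9% of the near ones, and CTCF at 12.8% of the far and 8.22% of the near ones. Their host H3K4me3 peaks had a median fold of 15.9, against 38.6 for the near ones. Of the 1963, 605 (30.8%) were within 1 kb of the start site of another annotated gene.

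By gene, 9076 of 21670 protein-coding genes (41.9%) had a marked GR peak whose midpoint lay within 1 kb of a start site, which is how genes are counted below. H3K4me3 was at a start site of 61.4% of genes. Among genes with H3K4me3 the share with a marked GR peak was 68.2%, with H3K4me3 and Pol2 84.8%, and with H3K4me3 without Pol2 15.3%. Some genes had a divergent neighbour, a protein-coding start site on the opposite strand up to 1000 bases upstream. A marked GR peak was at 85.6% of 2061 such genes with H3K4me3, against 65.0% of 11249 without such a neighbour. A GR peak within 1 kb of both start sites counts for both genes. Of the 9076 genes, 2194 had 2 or more marked GR peaks.

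The gene lists below were chosen with earlier results of these data known, so their counts are description. All 25 GR target genes, textbook glucocorticoid-induced genes, had a marked GR peak, against 41.9% of all genes. So did 18 of 19 clock genes, 20 of 21 genes of atrophy and proteolysis (all but Mstn, the myostatin gene), 20 of 21 of glucose and glycogen and 20 of 22 of fatty acid oxidation. Among genes with H3K4me3 and Pol2 the share was already 84.8%. In housekeeping families a marked GR peak was at 73 of 77 oxidative phosphorylation subunits, 73 of 77 cytosolic ribosomal proteins, 69 of 78 mitochondrial ribosomal proteins, 30 of 33 proteasome genes and 13 of 14 housekeeping genes. A marked GR peak was also at 21 of 25 insulin and IGF signalling genes, 15 of 18 muscle transcription factors and 17 of 20 immediate early genes.

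Of sarcomere genes, 20 of 30 had one. The 10 without were Myh7, Myl2, Myl3, Tnnt1, Tnni1, Tnnc1, Mybpc1, Myh1, Myh2 and Tcap. Of the 30, 24 had H3K4me3 at a start site and 24 had Pol2. A marked GR peak was at 20 of the 24 with H3K4me3 (83.3%). The share was 68.2% over all genes with H3K4me3 and 84.8% over those with H3K4me3 and Pol2. In the marker lists of other cell types, 1 of 12 endothelial genes, 0 of 14 immune, 0 of 11 neuronal and 0 of 14 liver genes had one. Fibro-adipogenic genes had 6 of 12, satellite cell genes 3 of 11, Schwann genes 3 of 10 and adipocyte genes 2 of 10. H3K4me3 itself was at 11 of 12 endothelial, 3 of 14 immune, 3 of 11 neuronal, 0 of 14 liver, 10 of 12 fibro-adipogenic, 9 of 11 satellite cell, 6 of 10 Schwann and 4 of 10 adipocyte genes.

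**Figure D4:**
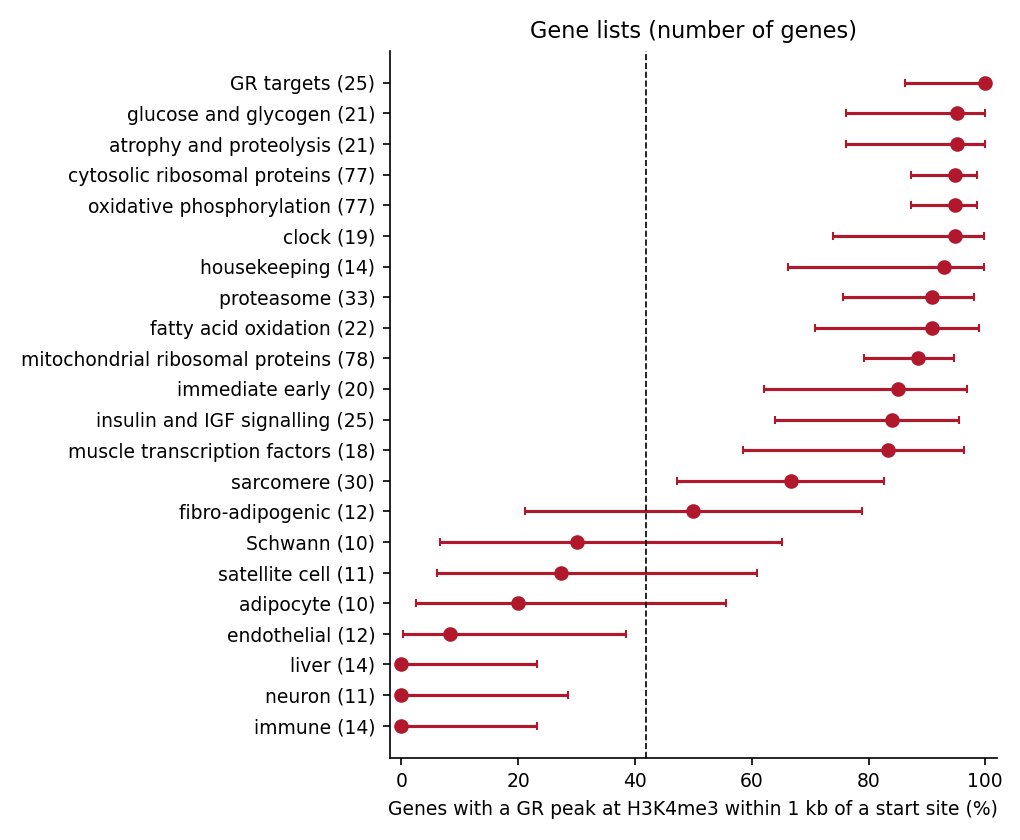
Share of the genes of each list with a GR peak at H3K4me3 within 1 kb of a start site (horizontal axis, exact 95% intervals), with the number of genes in brackets and all protein-coding genes as a dashed line at 41.9%. Metabolic, ribosomal and GR target lists stand right of the line and the liver, neuron and immune lists at 0.

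Single genes show how the peaks were arranged. Of 37 fixed genes, 34 had a marked GR peak, against 41.9% of all genes and 84.8% of those with H3K4me3 and Pol2. The widest one of each had Pol2 and H3K27ac in all 34, H3K4me1 in 13 and CTCF in 3. Over all marked GR peaks, of any width, the shares were 84.1% for Pol2, 92.5% for H3K27ac, 49.6% for H3K4me1 and 8.95% for CTCF. The widest one of a fixed gene reached 1677 bases with a median of 550.5, against a median of 281 over the 9076 genes. It was within 200 bases of a start site in 27. The 3 without one were Mstn, Myog, the myogenin gene, which lacked H3K4me3 and Pol2, and Tcap, a sarcomere gene, where the 2 GR peaks with a midpoint within 1 kb shared no base with H3K4me3. A wider marked peak, described below, covers Tcap with its midpoint farther away.

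Fkbp5, a co-chaperone that dampens GR, had 4 marked GR peaks within 1 kb of a start site, in 2 H3K4me3 peaks at different start sites of the gene. One of 1139 bases, which holds the GRE printed above, lay at -494 bases from the nearest start site, in the H3K4me3 peak of fold 10.1. The others, of 524, 265 and 123 bases, lay at -21, 496 and 815 bases from the start site nearest to each, in the H3K4me3 peak of fold 44.7. Farther out, an exact GRE also lay in a marked peak of 796 bases at -1525 (H3K4me3 fold 10.1). Another GRE lay in a marked peak of 198 bases at 1101 (H3K4me3 fold 44.7). Per1, a clock gene, had peaks of 414, 344 and 294 bases within 1 kb of a start site, all with Pol2. An exact GRE lay in the 344-base peak and another in a marked peak of 622 bases farther out, at 1830 bases from the nearest start site. Pik3r1 encodes a regulatory part of PI3-kinase; among its 5 peaks the widest, 529 bases, was the single one with Pol2. Nr3c1, which encodes GR, had 4 peaks of 431, 364, 182 and 159 bases, all with Pol2.

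Trim63, the MuRF1 ligase gene, had 1 marked GR peak of 989 bases at -42, Fbxo32, the atrogin-1 gene, 1 of 765 bases at -175, and Foxo3, a regulator of both, 1 of 343 bases at 6. Glul, the glutamine synthetase gene, had 2, of 771 and 589 bases. Ckm, muscle creatine kinase, had 3 of 567, 491 and 258 bases, and Acta1, skeletal actin, 3 of 282, 272 and 200 bases, all with Pol2 and without H3K4me1.

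Across the lists, the widest marked GR peaks near start sites differed in size. Among GR targets Ddit4, an mTOR inhibitor, had 1346 bases and Nfkbia, an NF-kB inhibitor, 1166 bases. Jun, an AP-1 subunit, had 1204 and Nr4a1, an orphan nuclear receptor, 841 bases. In insulin signalling Gsk3b, a kinase that restrains glycogen synthesis, had 891 and Sesn1, a stress-induced mTORC1 inhibitor, 863 bases. The clock genes Arntl, which encodes BMAL1, and Nr1d2, a REV-ERB gene, had 862 and 703 bases. Ppp1r3c, a glycogen-targeting phosphatase subunit, had 801 bases, and Acadm, a dehydrogenase of fatty acid oxidation, 737 bases. Mef2a, a muscle transcription factor, had 667 bases, Ndufs8, a complex I subunit, 592 bases, Rps19, a small ribosomal subunit protein, 523 bases and Psmc3, a proteasome ATPase, 488 bases. The median of the widest peak per gene was 529 bases in the GR targets, 262 in oxidative phosphorylation and 271 in cytosolic ribosomal proteins, against 281 over all 9076 genes.

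The widest marked GR peak, 3191 bases at chr11:98383749-98386939, covered Tcap and Pnmt. Next were 2944 bases at a non-coding gene upstream of Klf9, 1677 at Atp2a1, the fast-fibre calcium pump, and 1603 at Rev3l. A marked peak of 1346 bases lay at an annotated ribosomal RNA gene, -102358 bases from Esp38, the closest coding gene. It had H3K4me1 and CTCF without Pol2 or H3K27ac, and shared 238 bases with an H3K4me3 peak of 238 bases and fold 2.30. At the edge of the rule, the peaks at Shc1, Sf3a3 and Ccdc114 shared 1 base with H3K4me3, while those at Stom, Cdh4 and Gm9903 touched an H3K4me3 peak end to end and were left out. Of the 5 strongest H3K4me3 peaks without GR, the peak 60073 bases from Pdia4 (fold 95.4, 351 bases wide) and the peak in Qpct (fold 93.8, 589 bases wide) overlapped CTCF and none of Pol2, H3K27ac and H3K4me1. The peaks at the start sites of Map3k1, Slc35a3 and Scmh1 had Pol2, H3K27ac and H3K4me1.

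Marked GR peaks were rich in G and C. The median GC content of 200 bases at the midpoint was 66.0% in marked and 52.0% in other GR peaks (difference 14.0 points), and the median CpG observed over expected was 0.820 against 0.212. Motifs were searched on both strands in the same 200 bases, so a match elsewhere in a wider peak was not counted. The median width was 246 bases in marked and 186 bases in other GR peaks. The GRE was in this window in 88 marked GR peaks (0.713%) and 1192 other GR peaks (10.99%), a difference of -10.3 points (-10.9 to -9.68). It was in 5.52% of all GR peaks and 0.268% of the start sites of all protein-coding genes. The single hexamer AGAACA, which a GRE can overlap, was in 7.21% of marked and 28.4% of other GR peaks (difference -21.2 points, -22.2 to -20.2), against 17.1% of all GR peaks and 9.96% of start sites. Start-site windows ran from 150 bases upstream to 50 bases downstream, so they are not centred as those of GR peaks are.

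Motifs of promoter factors went the other way, with a higher share in marked GR peaks. The GC box GGGCGG was in 61.0% of marked and 7.77% of other GR peaks, against 44.2% of all start sites. NRF1, with 1 mismatch allowed, was in 10.6% and 0.433%, against 7.58% of start sites, ETS (CCGGAAGT) in 6.01% and 0.203%, against 4.70%, NF-Y (CCAATC) in 13.3% and 4.76%, against 14.1%, and YY1 (AAGATGGCG) in 2.84% and 0.0737%, against 1.80%. Lower in marked GR peaks were the E-box CAGCTG (12.3% against 24.9% of other GR peaks), AP-1 (TGANTCA, 3.18% against 11.5%) and MEF2 (1.25% against 4.55%).

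**Figure D5:**
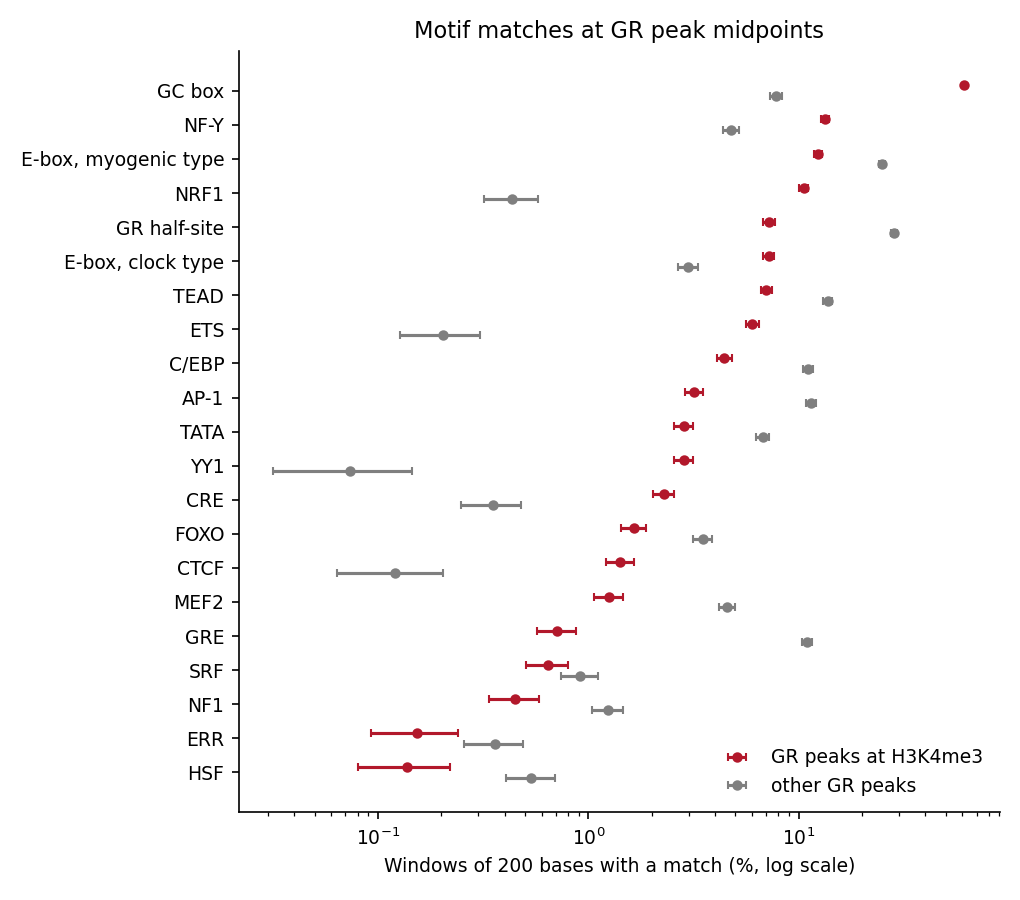
Share of windows of 200 bases at the GR midpoint with a match (horizontal axis, log scale, exact 95% intervals) for each motif (vertical axis), in GR peaks at H3K4me3 (red) and other GR peaks (grey). GC box, NRF1, ETS and YY1 lie higher in red and GRE, AP-1 and MEF2 lie higher in grey.

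The sets differed by 14.0 points of GC, so the motifs were also compared at equal GC. With other GR peaks weighted to the GC of the marked ones, over the 67.0% of marked windows that had enough counterparts, the GRE was in 0.968% of marked and 5.59% of other GR peaks (difference -4.63, -5.54 to -3.72) and the GC box in 49.4% and 26.2% (difference 23.2, 19.5 to 26.9). ETS, NRF1, NF-Y and YY1 stayed higher in marked GR peaks and AP-1 and the CAGCTG E-box lower, while the MEF2 difference had an interval that included 0 (-0.319, -0.978 to 0.339).

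Start sites with a marked GR peak were also set against start sites with H3K4me3 and no GR peak. NRF1 was in 14.1% of the 9076 with GR and 6.40% of the 4126 without GR (difference 7.68 points, 6.63 to 8.70), ETS in 8.75% and 3.999% (4.75, 3.89 to 5.57), the GC box in 67.2% and 55.6% (11.6, 9.79 to 13.4) and YY1 in 3.62% and 1.33% (2.29, 1.75 to 2.80). The GRE was in 12 start sites with GR (0.132%) and 2 without (0.0485%), a difference whose interval included 0 (0.0837, -0.0563 to 0.189). At equal GC, over 99.4% of the windows with GR, the GRE difference was 0.103 points (0.0131 to 0.192), an interval that excludes 0. Both intervals rest on these few matches, so the change between them is not firm.

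The 88 marked GR peaks with a GRE in the window at the midpoint were set against the 12250 without one there. A GRE elsewhere in the peak was not counted. The peaks with a printed GRE at Fkbp5, Trim63, Glul and Mt1 are therefore among the 12250. The 88 were within 1 kb of a start site in 53.4% of cases against 84.3%, and had Pol2 in 60.2% against 84.3%. They had H3K4me1 in 65.9% against 49.5%, and a median GC content of 58.5% against 66.0%. Their H3K4me3 peaks had a median fold of 18.3 against 36.3. The widest 3 of the 88 had 1086 bases, with Tprg as the nearest protein-coding gene (-227458 bases), 1083 bases at Spred1 and 844 bases at Txnip.

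Chromosome X stood apart. GR was at 155 of its 638 H3K4me3 peaks (24.3%, 21.01 to 27.8%) and at 52.0% of those on the autosomes (51.3 to 52.7%), a difference of -27.7 points (-31.0 to -24.2). Each autosome lay between 42.7% and 56.8%. X held 265 GR peaks of any kind, of which 171 (64.5%) were marked, against 53.2% of GR peaks on all chromosomes used. X had a lower median H3K4me3 fold, 13.9 against 19.7. With autosomal peaks weighted to the fold deciles of X, the autosomal share was 40.3%, still above 24.3%. Among H3K4me3 peaks with Pol2 the shares were 48.6% on X and 81.4% on the autosomes. The sex of the animals and the copy number of X were not analysed here, and their part in this difference was not tested.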

How the data were processed

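The deposited data are 1 peak list per antibody, with positions in bases on mm10. The authors' H3K4me3 and CTCF lists add a whole-number score, the fold (a linear ratio) over control, and 2 significance columns, deposited as −log10 of the p-value and of the q-value. The lists have no header, so these columns were told from their values. Per the submitters' processing notes, Bowtie 1.0.0, bcl2fastq 2.17.1.14 and MACS2 were used, with no role or threshold stated. The 8 samples include 2 inputs. No column was left unmapped.

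Peaks on chromosomes 1 to 19 and X were used, and overlap meant at least 1 shared base. Start sites were those of 21670 protein-coding genes in GENCODE M21. Shares carry exact Clopper-Pearson intervals, differences Newcombe intervals, and odds ratios within deciles Mantel-Haenszel estimates, all at 95%. Motifs were scanned on both strands in 200 bases centred on GR midpoints, and at start sites from 150 bases upstream to 50 bases downstream. They were compared at equal GC in bins of 2 percentage points with at least 20 windows. Overlap, motif and interval functions were tested on simulated data. Python 3.11.15, numpy 2.4.6, pandas 2.3.3, scipy 1.17.1 and matplotlib 3.10.9 were used.

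The peaks, 22 gene lists and 21 motifs were chosen with earlier results of these data known. Named genes were 37 fixed genes, the 10 widest marked GR peaks, the 5 H3K4me3 peaks with most GR peaks, the 2 widest of each list, up to 3 peaks on each side of the rule's edge, the 5 strongest H3K4me3 peaks without GR, and up to 8 with a printed sequence. Equal GC was planned for the GRE and its hexamer between marked and other GR peaks. The remaining comparisons at equal GC and those of chromosome X, of GRE-bearing peaks and of peaks by mark were added after the data were seen, as were the genes named for GRE-bearing peaks. Alternatives covered overlap, width, fold, windows, start sites and motif settings. Of the genes in the lists, 1 is not reported here.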

Additional observations from a re-analysis of the deposited data

How the results depend on the processing

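Of 71 alternatives planned for the main results, 62 kept the direction and the side of the threshold. Some of these differences still moved by over 1.5 times. Between H3K4me3 peaks with and without GR, in the upper 50% by fold, the difference was 18.1 points for H3K27ac, against 49.7, and 37.4 for Pol2, against 66.6. Near start sites it was 3.32 points for H3K4me1, against 10.6, and 6.92 for CTCF, against 2.11. Between marked and other GR peaks CTCF differed by 6.63 points in the widest 50% of GR peaks and by 2.43 with 50% of the peak covered, against 3.98. At equal GC the GRE differed by -4.63 points, against -10.3, and its hexamer by -6.35, against -21.2. The CTCF difference between H3K4me3 peaks with and without GR turned to -1.25 points in the upper 50% of H3K4me3 peaks by fold, with an interval that includes 0, and its odds ratio was 1.05 within deciles of fold. The GC difference was 15 points in the upper 50% by fold. The share of genes with a marked GR peak, 41.9%, became 40.9% with 50% of the GR peak covered by H3K4me3, 30.1% with the widest 50% of GR peaks, 38.3% with the upper 50% of H3K4me3 peaks by fold, 40.9% with a window of 500 bases, 44.0% with 5 kb and 20.4% with all annotated genes. The causes were not tested.

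Of 40 further motif differences at equal GC, chosen after seeing the data, 26 kept their call, 7 lost it and 3 gained it (GRE, C/EBP and FOXO at start sites with and without GR). The GRE difference rests on 12 matches at start sites with GR and 2 at those without. Between marked and other GR peaks 4 turned direction, to 0.374 points for SRF, 0.0251 for C/EBP, 0.0142 for ERR and 0.999 for TATA. Of these, SRF (0.123 to 0.625) and TATA (0.180 to 1.82) had intervals that exclude 0. The intervals of C/EBP (-1.46 to 1.51) and ERR (-0.132 to 0.160) included 0. No paired analysis was possible because there was 1 library per antibody. Library depths are unknown, so a missing peak cannot be told apart from a weak one.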
